A study of Homo sapiens with 6 samples.

Results

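The cytosolic ribosomal protein genes were followed in HK-2 cells, an established human proximal tubule line, with and without overexpression of *PPM1K*, the mitochondrial phosphatase that activates the branched-chain ketoacid dehydrogenase complex. Members were protein-coding genes whose symbol starts with RPL or RPS and a digit, plus RPSA, RPLP0, RPLP1 and RPLP2, without the S6 kinase genes, RPS4Y copies, RPS19BP1 and hyphenated symbols. The rule found 85 of the 31369 genes in the count table: 31 genes of the small subunit, 46 of the large subunit, 7 paralogues and RPS27AP5, which carries a pseudogene symbol although its type is given as protein-coding. Of these, 83 passed the filter on low counts. RPL3L (0 counts except 3 in OE replicate 3) and RPS27AP5 (2 to 5 counts) did not, and RPL10L was not among the table's rows.

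The ribosome is built from rRNA and a single copy of nearly every ribosomal protein, and the mRNAs of these proteins are among the most abundant of a growing cell. Most of these mRNAs start with an unbroken run of C and U, the terminal oligopyrimidine (TOP) tract, through which LARP1 and mTORC1 set how strongly they are translated. Amino acid shortage, which lowers mTORC1 activity, slows their translation. Some ribosomal proteins also have duties outside the ribosome: RPL5 and RPL11 bind MDM2 and so link the nucleolus to p53.

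The control group (NC) held 3 samples of genotype WT and the overexpression group (OE) 3 samples of genotype PPM1K overexpress, all labelled with chronic kidney disease as treatment and day 10 as time. According to the study's methods, the cells were transfected with a *PPM1K* plasmid using Lipofectamine, and what the controls received is not given in the sources used here. The sample titles name short hairpins against a control and PPM1K, which contradicts the genotype entries, and the cell line entry carries a different HK number in every sample while the cell type entry is HK-2 throughout. It is not stated that the samples of a group came from separate cultures, so p-values measure the spread between these samples, which may be technical. The counts of *PPM1K* were 37, 19 and 53 in NC and 3294, 3531 and 2919 in OE, which follows the genotype entries. As a log2 fold change (positive where OE is higher, here and throughout) this came to 6.39, with a standard error (SE) of 0.13 and an adjusted p of 1.1e-18 in the quasi-likelihood test of edgeR.

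The libraries held 34635770 to 39850802 counts. Of 11 markers of the proximal tubule, AQP1, LRP2, CUBN and the others, none reached an FPKM of 1 in both groups, with sums of 0.760 to 1.02 in NC and 0.700 to 0.800 in OE, while LRP2, SLC22A6 and SLC22A8 had no row. Of 7 markers of kidney epithelium, 6 did, among them PAX8, KRT8 and EPCAM, with sums of 618 to 683 in NC and 535 to 573 in OE. Of 13 markers of other kidney cell types none did (COL1A1, of fibroblasts, had 1.33 in NC and 0.680 in OE), and their sum was 1.91 to 2.06 in NC and 1.51 to 1.59 in OE. The defining transporters of the labelled proximal tubule were thus near 0 or had no row, and the part of the lower epithelial sum in the results was not tested.

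To show what the start sites of these genes look like, windows of 29 bases are given for 5 paralogues and 5 parent genes, and for RPL19, RPS14, RPS26, RPS25 and RPL4 from the ends of the order of change. Each runs from 10 bases before the RefSeq start site (GRCh38.p14), and capitals mark the longest unbroken run of C and T that touches the 5 bases on either side of the start; where capitals reach an edge the run may go on beyond it. The window of RPL26L1 lies 544 bases from the start of its canonical transcript.
RPL26L1 (chr5:172958870-172958898, plus strand): ggcggcggCCacaaacccgcaggcacgcc
RPL26 (chr17:8383175-8383203, minus strand): gcgtgtagTTCTCTTCCCTTTTgcggcca
RPL22L1 (chr3:170870177-170870205, minus strand): ccgtagCTTCCTCTCTgctctcgcggccg
RPL22 (chr1:6199577-6199605, minus strand): cgctcaCCTCCCTTTCTaactccgctgcc
RPL7L1 (chr6:42879606-42879634, plus strand): gtgcggcgCCgtagctaggagcggacgcc
RPS27L (chr15:63157459-63157487, minus strand): gatgCCgagcgcagatcgcttgcagcttg
RPS27 (chr1:153990752-153990780, plus strand): cgctttcgCTCCTTTCCggcggtgacgac
RPL36AL (chr14:49620608-49620636, minus strand): TCTTCCCTTTCCTgttaggcgagagctgc
RPL36A (chrX:101391001-101391029, plus strand): ctcgcggTTTCTTTCTTTCCgcgccgata
RPL39 (chrX:119791612-119791640, minus strand): ccgccagCTTCCCTCCTCTTCCTTTCTCC
RPL19 (chr17:39200273-39200301, plus strand): TCTCCCCTTCgcagataatgggaggagcc
RPS14 (chr5:150449721-150449749, minus strand): ccctcccaCTCTCTCTTTCCggtgtggag
RPS26 (chr12:56041908-56041936, plus strand): acataacctcgaTTTTCTTCCgccatccg
RPS25 (chr11:119018325-119018353, minus strand): gcagcgCTTCCTTTTTgtccgacatcttg
RPL4 (chr15:66504837-66504865, minus strand): cgggagTggtaagcacttccttttcctgt

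A start window was at hand for 67 of the 85 members, taking for each gene the RefSeq start nearest to the 5′ end of its canonical transcript. The C and T run had a median of 11 bases over these members and 4 over all 35116 windows of the table, and it was at least 6 bases long in 80.6% of the members against 22.2% of all windows. A counted run need not begin at the start site, and that of RPL19 ends before it. These shares are therefore not shares of TOP tracts. Among the 5 paralogues with a window, RPL22L1 and RPL36AL had runs of 10 and 15 bases, while RPL26L1, RPL7L1 and RPS27L had runs of 2. Among the core genes, those of the subunits themselves, the run reached 6 bases in 11 of 12 members that rose in OE, 5 of 8 that fell and 36 of 42 that did neither. For RPS29, RPL26L1 and RPL6 the RefSeq start lay over 300 bases from the canonical one (12330 bases in RPS29), and without them the counts were 11 of 12, 5 of 7 and 36 of 41, an alternative chosen after the data had been seen. At the annotated start of RPL4 the run was 1 base, and a longer stretch of C and T follows further downstream in the printed window. Over 300 bases around the start (250 before, 50 after), on both strands, the ETS motif CCGGAAG was found in 34.3% of the members and 10.3% of all windows, the YY1 motif AAGATGG in 13.4% and 5.84%, the GC box GGGCGG in 56.7% and 45.0%, the E-box CACGTG in 5.97% and 7.26%, and the C/EBP-ATF motif TGATGNAA in 2.99% and 3.62%. The AAG that ends the ETS motif also begins the YY1 motif, so a joined site can count for both. The ETS motif was in 7 of 12 core members that rose, 3 of 8 that fell and 11 of 42 others, and these shares are a description of annotated starts without a test.

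Most ribosomal protein mRNAs moved little. Of the 83 tested members, 23 rose and 9 fell at an adjusted p under 0.05 in edgeR's quasi-likelihood test, and 51 did not pass. Upper quartile scaling gave 16 that rose and 13 that fell, and scaling to the summed counts of the members themselves gave 15 and 15, while offsets for gene length gave 35 that rose and 12 that fell. Over all 15878 tested genes 24.9% rose and 23.7% fell by the same rule, against 27.7% and 10.8% of the members. The number of members that rose depended on the setting and on single samples, since 37 rose without OE replicate 3 and 15 without OE replicate 1. For these alternatives the share of all genes called was not computed, so how they compare with the background is not known. In either direction 38.6% of the members were called, against 48.6% of all genes. The thresholds used in the study, which also ask for a fold change above 2 or below 0.5, were passed by no member, while 1.73% of all tested genes passed them upwards, 3.79% downwards and 5.51% in either direction. No member with an unadjusted p under 0.05, of which there were 38, had such a fold change, and DESeq2 and limma also called 0. The members that rose did so by 1.10-fold to 1.60-fold, and those that fell were at 0.736 to 0.876 of NC.

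**Figure D1:**
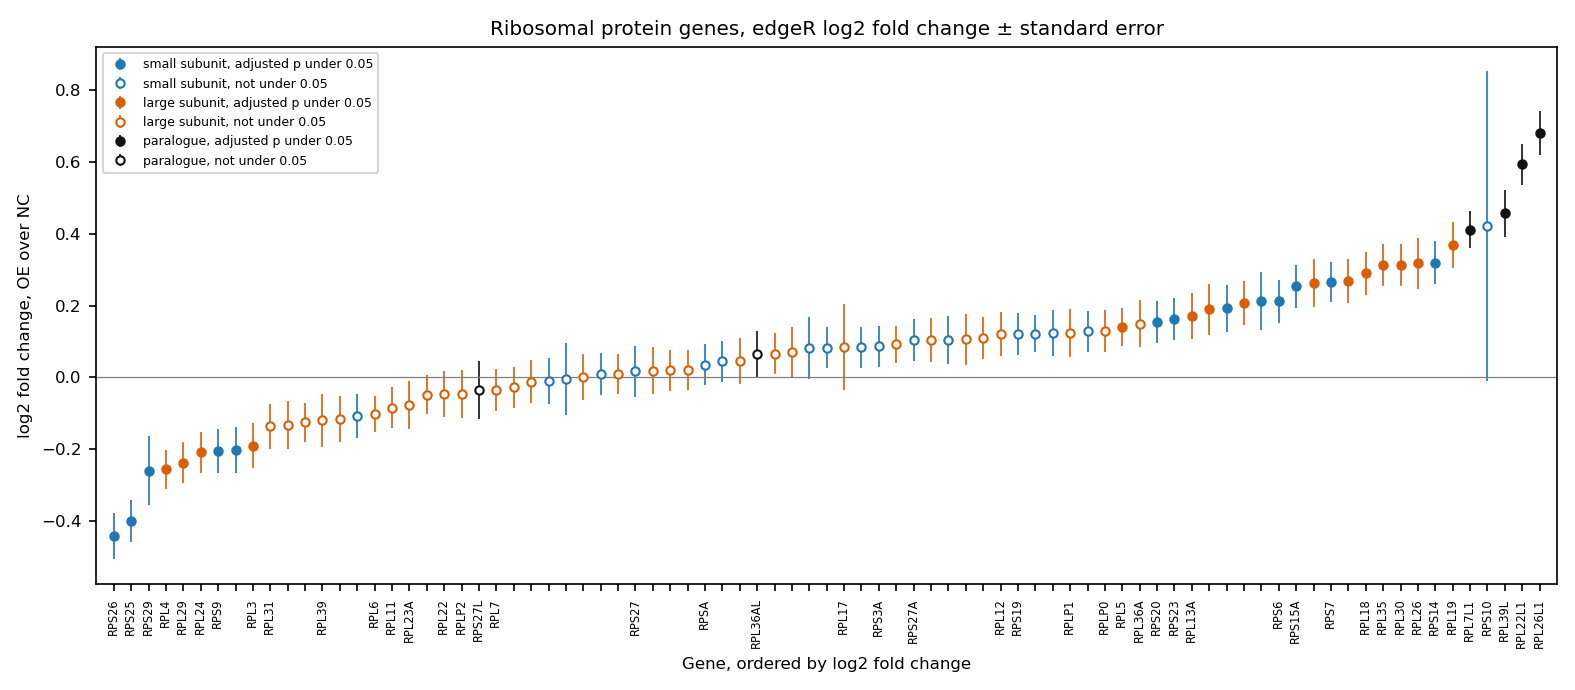
Log2 fold change of OE over NC for the 83 tested ribosomal protein genes, in order, with standard errors from edgeR (3 samples per group). Filled points passed an adjusted p of 0.05, open points did not, and colours give the subunit or the paralogues. Genes named in the text are labelled. The paralogues RPL26L1 (0.68) and RPL22L1 (0.59) stand at the upper end, and RPS26 (−0.44) and RPS25 (−0.40) at the lower end. RPS10, with 8 to 29 counts, has the widest error.

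The changes of the members lay closer together than those of other genes. The 5th and 95th percentiles of the log2 fold change were −0.23 and 0.41 for the members and −0.90 and 0.69 for all tested genes, and 64 of the 83 (77.1%) stayed within 0.25 of 0, against 47.1% of all genes. All tested genes also had a larger median SE, 0.093 against 0.061 in the members. Among 18 other genes whose mRNAs have a TOP start, 17 stayed within 0.25 of 0, so the narrow spread was not particular to the members. The median was 0.08 for the members and −0.0032 for all genes. By subunit, 8 of 31 small-subunit genes rose (25.8%) and 5 fell (16.1%), with a median of 0.09. In the large subunit, 11 of 46 genes rose (23.9%) and 4 fell (8.70%), with a median of 0.03. Both shares that rose were near the 24.9% of all tested genes, of which 23.7% fell. Across the 83 genes, Spearman's rho of the log2 fold change with the mean count was −0.0071 and with the canonical transcript length −0.0069, values that share the same 6 libraries. The groups did not overlap in CPM (counts scaled to the TMM-adjusted library size) in 27 members (32.5%), 18 higher and 9 lower, where 55.3% of all tested genes did not overlap.

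Many members shared the same order of samples within a group, and the share of counts differed between the groups by less than the SD within either group. Ribosomal protein genes took 4.39%, 4.17% and 4.52% of all counts in replicates 1 to 3 of NC and 4.69%, 4.58% and 4.25% in those of OE. OE replicate 3 lay inside the NC range, so the groups overlapped. NC averaged 4.36% ± 0.179 (SD, n = 3). OE averaged 4.51% ± 0.228 (SD, n = 3), a difference of 0.148 percentage points. As a share of summed FPKM the members took 4.55%, 4.32% and 4.57% in NC and 4.97%, 4.92% and 4.72% in OE. On this length-scaled measure the groups did not overlap, and the means differed by 0.389 percentage points, 4.48% ± 0.138 (SD, n = 3) against 4.87% ± 0.131 (SD, n = 3). OE replicate 3 was the lowest OE sample in 77 of the 83 members, and NC replicate 2 was the lowest NC sample in 66. The study's read statistics give NC replicate 2 the largest intronic, intergenic and antisense shares of all samples. Each OE sample had smaller shares of these reads than any NC sample. The bearing of these differences on the shares of counts was not tested. Measured as the median over members relative to the NC mean of each gene, the samples lay at 0.01, −0.08 and 0.06 in NC and at 0.15, 0.09 and −0.05 in OE on the log2 scale. Without OE replicate 3, 37 members rose and 6 fell, with a median of 0.13. Without OE replicate 1, 15 rose and 13 fell, with a median of 0.03. Without NC replicate 1, 5 fell. The part of this shared order in the calls of single members was not tested.

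**Figure D2:**
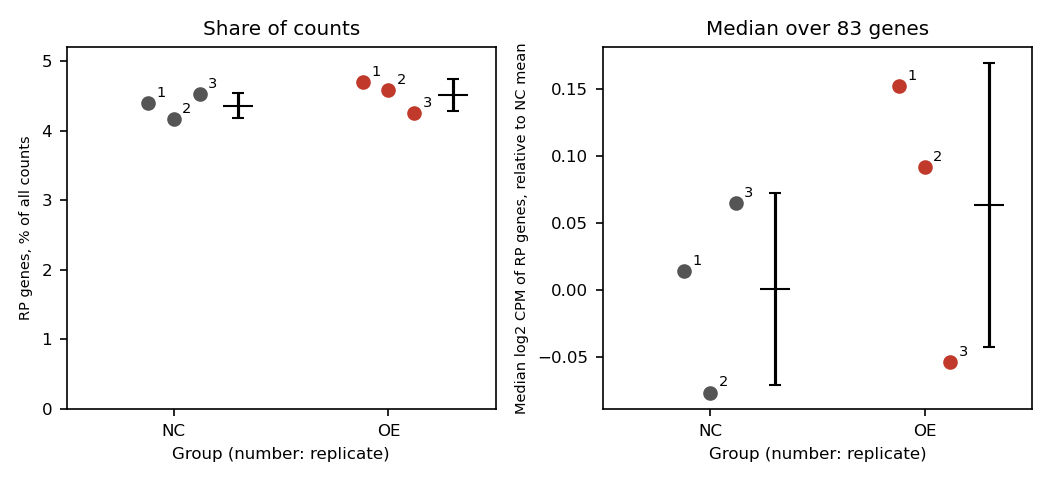
Left, the percentage of all counts that fell on ribosomal protein genes in each sample; right, the median over 83 genes of log2 CPM relative to the NC mean. Points are samples with their replicate number, and bars give the mean and SD of 3 samples. OE replicate 3, at 4.25%, lies inside the NC range of 4.17% to 4.52%.

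The 4 largest increases among called members were in paralogues, further gene copies that stand in for a standard subunit protein in some tissues. Of the 6 tested paralogues, 4 rose (66.7%) and none fell, beside 24.9% and 23.7% of all tested genes. In CPM the groups did not overlap in 4 of these 6 (66.7%), beside 55.3% of all tested genes. RPL26L1 (GRCh38 chr5:172958729-172969771, plus strand), a copy of RPL26, had 55.8, 54.2 and 55.5 CPM in NC and 90.3, 95.7 and 79.2 CPM in OE. Every OE sample was above every NC sample, and OE replicate 3 was the lowest of its group. In bulk RNA, a change in the number of cells that express a gene and a change in its RNA per cell cannot be told apart. The log2 fold change was 0.68 (1.60-fold, SE 0.06, edgeR adjusted p = 1.3e-08). RPL22L1, whose mRNA is known to be held down by the protein of its parent RPL22, had 53.2, 48.8 and 52.6 CPM in NC and 77.7, 81.1 and 74.4 CPM in OE, again without overlap. Its log2 fold change was 0.59 (1.51-fold, SE 0.06, edgeR adjusted p = 2.3e-08). RPL39L, best known from the testis, had 30.1, 30.0 and 30.4 CPM in NC and 43.5, 41.6 and 39.1 CPM in OE. The NC samples were nearly level and all OE samples lay higher, with a log2 fold change of 0.46 (SE 0.06, edgeR adjusted p = 5.6e-06). RPL7L1, a copy of RPL7 placed in ribosome assembly, had 91.6, 82.7 and 86.5 CPM in NC and 114, 115 and 118 CPM in OE, without overlap and with OE replicate 3 the highest. Its log2 fold change was 0.41 (SE 0.05, edgeR adjusted p = 1.2e-06). The other 2 tested paralogues gave no call: the change of RPL36AL was 0.07 in log2 (adjusted p = 0.42) and that of RPS27L, a p53 target, was −0.04 (edgeR adjusted p = 0.74), and in each the groups overlapped.

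Set against their parent genes, 4 of the 6 paralogues had higher count ratios in every OE sample. Ratios were not computed for other pairs of genes, so a background share for such ratios is not known. In CPM, 55.3% of all tested genes did not overlap between the groups. The count of RPL22L1 was 143%, 138% and 150% of that of RPL22 in NC and 223%, 229% and 219% in OE. RPL39L stood at 28.1%, 26.6% and 26.5% of RPL39 in NC and at 36.35%, 41.73% and 44.03% in OE, and RPL7L1 at 6.10%, 6.18% and 5.79% of RPL7 in NC and 7.70%, 8.16% and 8.82% in OE. RPL26L1 stood at 132%, 110% and 115% of RPL26 in NC and 139%, 178% and 144% in OE. These are ratios of counts, so their change between the groups does not depend on length, while their size does. In these 4 pairs the groups did not overlap, and in log2 the ratio was higher in OE by 0.64, 0.59, 0.45 and 0.36 in the order RPL22L1, RPL39L, RPL7L1 and RPL26L1. An exact two-sided permutation test gave p = 0.1 in each, the smallest that 3 samples against 3 allow, and 0.15 after Benjamini-Hochberg adjustment over 6 pairs. RPL36AL and RPS27L lay at 41.6% and 9.83% of their parents in NC and at 39.1% and 9.49% in OE, where the groups overlapped (exact permutation p = 0.2 and 0.6). Of the parents, RPL26 rose by a log2 fold change of 0.32 (edgeR adjusted p = 0.00092), and RPL22 (−0.05), RPL39 (−0.12), RPL7 (−0.03), RPL36A (0.15) and RPS27 (0.02) did not pass. Only uniquely mapped reads were counted, so reads that fit a paralogue and its parent equally well are missing from both, and a share of reads could still be split between near-identical copies.

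**Figure D3:**
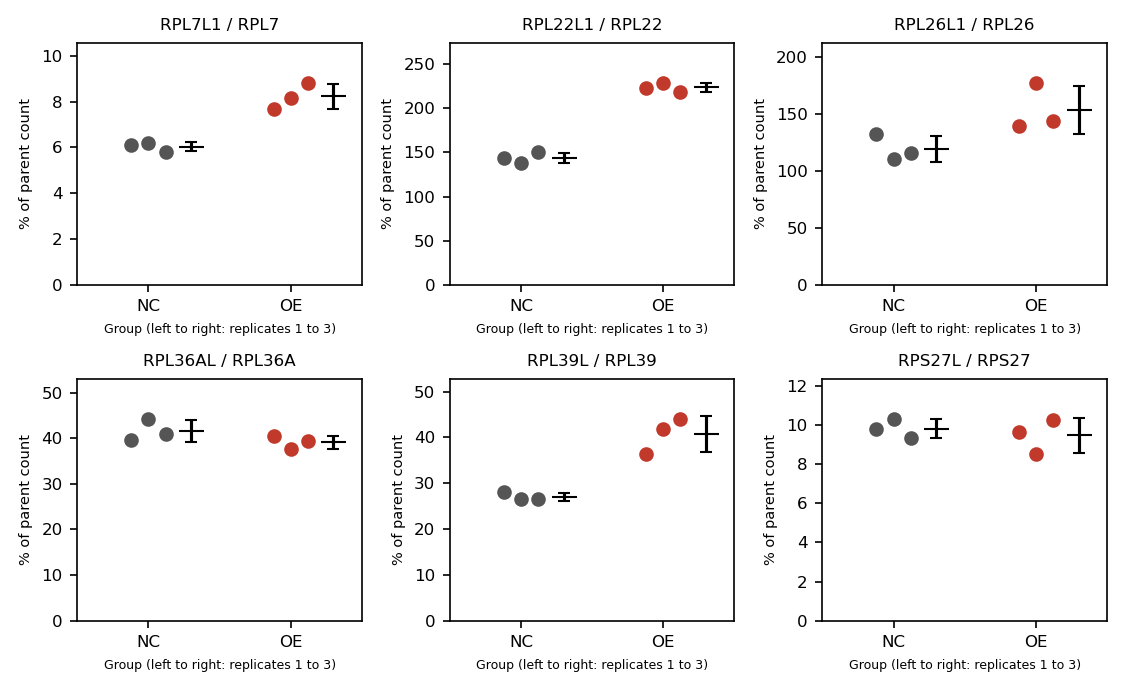
Count of each paralogue as a percentage of the count of its parent gene, in 3 NC and 3 OE samples. Points are samples in replicate order, bars give the mean and SD, and each axis starts at 0. The points of RPL7L1, RPL22L1, RPL26L1 and RPL39L do not overlap between the groups; those of RPL36AL and RPS27L do.

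Among the standard genes of the small subunit, RPS26 and RPS25 fell most. RPS26 (chr12:56041351-56044697, plus strand), which lines the mRNA exit channel and is mutated in Diamond-Blackfan anaemia, had 74.3, 68.6 and 75.2 CPM in NC and 56.6, 56.0 and 47.8 CPM in OE. The groups were apart and the log2 fold change was −0.44 (0.736 of NC, SE 0.06, edgeR adjusted p = 7.9e-06). RPS25 (chr11:119015712-119018691, minus strand), on which some viral internal ribosome entry sites depend, had 195, 194 and 213 CPM in NC and 166, 147 and 142 CPM in OE, with every OE sample below every NC sample. Its log2 fold change was −0.40 (SE 0.06, edgeR adjusted p = 9.5e-06). RPS29 (−0.26) and RPS9 (−0.20) also fell, with groups that overlapped. Over 22 settings, the main fit and its alternatives, RPS29 was called lower in 14 and RPS9 in 19. In the other direction, RPS14, a platform protein of the small subunit, had 268, 237 and 257 CPM in NC and 341, 320 and 291 CPM in OE. Its samples did not overlap either, and its log2 fold change was 0.32 (1.25-fold, SE 0.06, edgeR adjusted p = 0.00015). RPS7, an MDM2-binding protein, rose by 0.27, RPS15A by 0.25 and RPS6, the substrate of the S6 kinases, by 0.21 in log2. RPS3A, at the highest FPKM of the small subunit, had 0.09 (adjusted p = 0.22).

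In the large subunit the 5 largest called increases were in RPL19, RPL26, RPL30, RPL35 and RPL18. RPL19, which sits near the exit of the peptide tunnel and bridges to the small subunit, had 1569, 1467 and 1701 CPM in NC and 2139, 2117 and 1859 CPM in OE. No OE sample reached down to NC, and the log2 fold change was 0.37 (1.29-fold, SE 0.06, edgeR adjusted p = 6.3e-05). RPL35 had 752, 701 and 783 CPM in NC and 984, 939 and 854 CPM in OE, a log2 fold change of 0.31 (SE 0.06, edgeR adjusted p = 0.00015) without overlap. Of the 6 genes listed for the tunnel exit (RPL17, RPL19, RPL23A, RPL26, RPL31 and RPL35), 3 rose (RPL19, RPL26 and RPL35) and none fell. Of all tested genes, 24.9% rose and 23.7% fell. The log2 fold changes were 0.08 in RPL17, −0.08 in RPL23A and −0.14 in RPL31. Some genes of this short list were named after their values were seen, and a pattern at the tunnel exit was not tested. RPL30 rose by 0.31 and RPL18 by 0.29 in log2. At the lower end, RPL4, whose loop lines the peptide tunnel, had 1152, 1099 and 1204 CPM in NC and 976, 1009 and 906 CPM in OE. The groups did not meet, and the log2 fold change was −0.26 (SE 0.06, edgeR adjusted p = 0.00062). RPL29 (−0.24), RPL24 (−0.21) and RPL3 (−0.19), the last at the peptidyl transferase centre, fell as well, all without overlap. They were called lower in 22, 21 and 17 of the 22 settings, in that order.

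Members with a known duty of their own gave small values. RPL5 rose from 2641 ± 74.1 (SD, n = 3) to 2909 ± 84.0 CPM (SD, n = 3), a log2 fold change of 0.14 (edgeR adjusted p = 0.036), while its partner RPL11 had −0.08 (adjusted p = 0.23). The call of RPL5 was lost with the replicate number as a block (adjusted p = 0.14), as were those of RPL13A, RPS20 and RPS23. Over the 22 settings, RPL5 was called higher in 12, RPL13A and RPS20 in 13 each and RPS23 in 14. None of the stalk proteins, which recruit elongation factors, passed: RPLP0 had 0.13 (adjusted p = 0.071), RPLP1 0.12 (adjusted p = 0.13), RPLP2 −0.05 (adjusted p = 0.60) and RPL12, at the stalk base, 0.12 (edgeR adjusted p = 0.11). RPS19, the gene most often mutated in Diamond-Blackfan anaemia, had 0.12 (adjusted p = 0.094), RPS27A, made as a fusion with ubiquitin, 0.10 (adjusted p = 0.15) and RPSA, also called laminin receptor, 0.04 (edgeR adjusted p = 0.64). FAU (0.04) and RACK1 (0.13), subunit genes that the symbol rule misses, did not pass either.

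**Figure D4:**
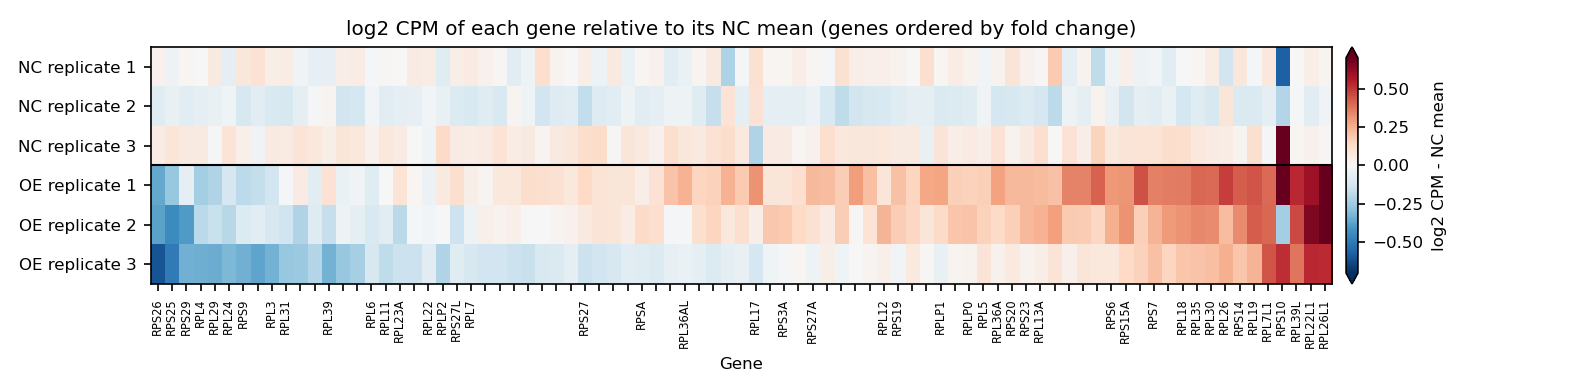
Log2 CPM of the 83 tested genes in the 6 samples relative to the NC mean of each gene, with genes ordered from the lowest to the highest log2 fold change. Genes named in the text are labelled, red is higher and blue lower, and colours are capped at 0.7 in both directions. OE replicate 3 is lower than the other OE samples in most columns, while RPS26 and RPS25 are lower, and RPL22L1 and RPL26L1 higher, in all OE samples.

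RPS10 and RPL17 held few counts under their own symbols, next to readthrough genes with many. RPS10 held 8, 11 and 24 counts in NC and 29, 12 and 20 in OE, while the readthrough gene RPS10-NUDT3, which overlaps RPS10 on the same strand, held 12665, 10373 and 12124 in NC and 12898, 14793 and 11862 in OE. RPL17 held 258 to 381 counts and RPL17-C18orf32 21753 to 29300. The log2 fold changes of RPS10 (0.42, SE 0.43) and RPL17 (0.08, SE 0.12) therefore rest on few reads. With the readthrough counts added they were 0.08 (adjusted p = 0.35) and 0.14 (edgeR adjusted p = 0.049), an alternative chosen after the data had been seen. Pseudogene copies of the members made up 543 rows, and their summed count in a sample equalled 1.08% to 1.12% of that of the members. Of the 85 members, 59 overlap another gene in GENCODE release 44, and 28 hold snoRNA genes, 60 in all. The sources used here do not say if strand was used in counting, so reads of members and of genes on the other strand may be mixed. The gene length implied by the deposited counts and FPKM was, in the median over members, 1.07 times the length of all annotated exons and 3.11 times the canonical transcript, with exceptions such as RPSA at 0.545 times its exons. On this scale RPL23A had the largest level, 1216 in NC and 1167 in OE.

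Most tested factors that assemble the ribosome rose. Of 83 tested assembly factors, 62 rose and 5 fell (74.7% and 6.02%), with a median log2 fold change of 0.35, beside 24.9% and 23.7% of all tested genes, and none passed the 2-fold threshold. RPF2, which brings RPL5 and RPL11 into the large subunit, rose from 49.6 to 87.3 CPM (log2 fold change 0.82, SE 0.05, edgeR adjusted p = 8.9e-11). NOP14 of the small-subunit processome rose by 0.75 and DKC1, the pseudouridine synthase of rRNA, by 0.69 in log2. NHP2, a partner of DKC1, fell by 0.43, PWP1 by 0.28 and UBTF, a factor of rRNA transcription, by 0.27. Of 13 chaperones and importers of ribosomal proteins 7 rose (53.8%) and none fell, with a median of 0.19. TNPO1 had 0.68, NPM1 0.43 and NAP1L1 0.29. The 78 mitochondrial ribosomal protein genes had 45 that rose (57.7%) and 7 that fell (8.97%), with a median of 0.23. These lists were written by hand with earlier results of these data known, and no difference between them and the ribosomal protein genes was tested.

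Of 18 other genes whose mRNAs have a TOP start, among them elongation factors, FAU and RACK1, none rose and 6 fell (33.3%). Their median log2 fold change was 0.03. Of all tested genes, 24.9% rose and 23.7% fell. EIF4B had 668, 667 and 652 CPM in NC and 549, 565 and 563 CPM in OE, a log2 fold change of −0.24 (SE 0.05, edgeR adjusted p = 0.00027) with groups apart. EIF3L (−0.26) and EIF3H (−0.24), subunits of initiation factor eIF3, fell as well. Of 24 regulators of TOP mRNAs or of ribosomal protein genes, 14 rose (58.3%) and 3 fell (12.5%), beside 24.9% and 23.7% of all genes. LARP1, which binds the TOP tract, rose by 0.57 (SE 0.06, edgeR adjusted p = 7.9e-08), EIF4EBP1, an inhibitor of cap-dependent initiation and a known ATF4 target, by 0.83 and CNBP by 0.65 in log2, while EIF4EBP2, MXI1 and PDCD4 fell by 0.26, 0.23 and 0.19. Of 30 genes of ribosome quality control and hibernation, 14 rose (46.7%) and 7 fell (23.3%). The share that rose was above the 24.9% of all tested genes, and the share that fell was close to their 23.7%. IFRD1 rose from 20.9 to 46.3 CPM (log2 fold change 1.15, edgeR adjusted p = 9.9e-12) and was the only one past 2-fold. GTPBP2, which rescues stalled ribosomes, rose by 0.69 and USP10, which removes ubiquitin from small-subunit proteins, by 0.53 in log2. ANKZF1 and NEMF, which act on stalled large subunits, fell by 0.63 and 0.50, and TCF25 by 0.33. Transcript levels do not show how much of any of these mRNAs was translated.

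**Figure D5:**
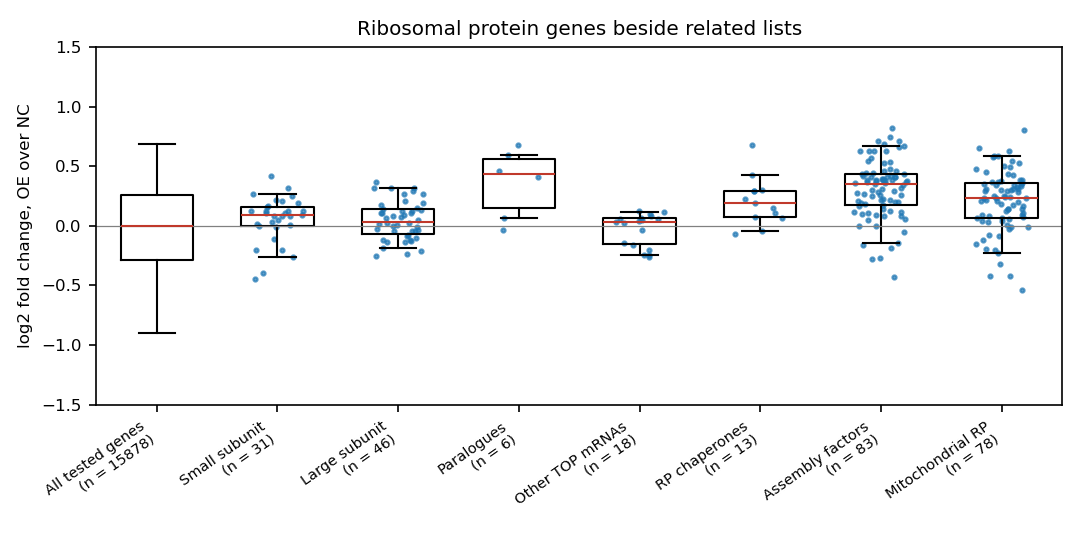
Log2 fold change of OE over NC for the small-subunit, large-subunit and paralogue genes beside related lists and all 15878 tested genes. Points are genes (not drawn for all tested genes), boxes give the quartiles and whiskers the outermost genes within the 5th and 95th percentiles, with the median in red. The medians are 0.09 and 0.03 for the subunits, 0.43 for the 6 tested paralogues and 0.35 for the assembly factors.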

How the data were processed

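The data are 6 stranded mRNA libraries of HK-2 cells, 3 per group, read at both ends. The authors dropped reads with many N bases, trimmed the rest with FASTX-Toolkit, used HISAT2 for alignment to GRCh38, and took only reads with a unique position into the gene counts. The submitters' processing notes also list mm10, a mouse build, without a role. The deposited counts are raw, and the deposited FPKM values, computed by the authors, are relative to length and depth. The annotation and counter are not given in the sources used here. Groups were taken from the genotype entries, and columns were matched by group and number.

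The deposited counts were tested with edgeR 4.0.16 in R 4.3.3 (filterByExpr, TMM, quasi-likelihood F-test) on all 15878 tested genes with Benjamini-Hochberg adjustment; standard errors were derived from the F statistic. The estimated biological coefficient of variation was 6.30%. At 34635770 to 39850802 counts per sample, counting error is small for most members. Replicates were checked not to be copies (mean chi-square per gene 5.17 to 11.9, where sampling noise gives about 1). DESeq2 1.42.0, limma 3.58.1 on log2(FPKM + 1) and log2(FPKM + 0.1), other scalings and filters, length offsets, a replicate block and each sample left out were alternatives. Coordinates, overlaps and canonical lengths came from GENCODE release 44, and start windows from RefSeq (GRCh38.p14). Windows were not at hand for 18 members, among them RPL23, RPL23A, RPL30, RPL37, RPL39L, RPL3L, RPL5, RPL7, RPL8, RPS15A, RPS2, RPS20 and RPS27AP5.

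The members and lists were chosen with earlier results of these data known. Named genes were *PPM1K*, the paralogues and their parents, 9 members chosen by role, per subunit up to 5 called genes with the largest change in each direction and the gene of highest FPKM, FAU and RACK1, and up to 3 called genes per direction of each other list with the smallest adjusted p. The further genes of the stalk and tunnel-exit lists, RPL6, the readthrough genes and those lost under the block were named after their values were seen. Some genes that the rule names are not reported here.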

Additional observations from a re-analysis of the deposited data

How the results depend on the processing

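Deviations from the group means were not alike in samples of the same number (correlations over all tested genes −0.0032, −0.066 and −0.054, and over the members −0.66, 0.03 and 0.41 for numbers 1, 2 and 3), and no sample of one group correlated best with its own number in the other. With the replicate number as a block, 19 members rose and 9 fell, 28 of the 32 calls being shared. PPM1K kept a log2 fold change of 6.08 to 6.75 with each sample left out. Relative to the summed counts of the ribosomal protein genes alone, 15 members rose and 15 fell. limma on log2(FPKM + 1) and on log2(FPKM + 0.1) called 5 lower with each pseudocount. Offsets for gene length gave 35 that rose. With each sample left out in turn, 15 to 37 members rose and 5 to 13 fell, the median log2 fold change ranged from 0.03 to 0.13, the difference in the share of counts from 0.051 to 0.275 percentage points, and the 2-fold count stayed at 0. As a share of summed FPKM the difference was 0.389 percentage points. Upper quartile scaling gave 16 that rose and 13 that fell. The cause of these moves was not tested. Over the 22 settings including the main one, 15 members rose and 4 fell in all, RPL26L1, RPL22L1, RPL39L, RPL7L1, RPS26 and RPS25 among them, and 27 members were called in none. In the main fit 48.6% of all tested genes were called in either direction. Their shares called in the alternatives, in all settings or in none were not computed, so how the members compare with this background is not known. Depth does not limit most members, but RPS10 (SE 0.43) and RPL17 (SE 0.12) hold few counts under their own names and have the widest errors. RPS28 (SE 0.10) and RPS29 (SE 0.097, called lower) follow, so small changes in these genes can be missed.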
